A study of Mus musculus with 8 samples.

Results

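The Hox genes are the homeobox genes that lie in 4 clusters of the mouse genome, and they are described here in crypts of the small intestine (SI) and colon (COL). Members were all protein-coding genes of the deposited tables whose symbol is Hoxa, Hoxb, Hoxc or Hoxd followed by a number alone, which gave 39 of 21519 protein-coding genes and of 45706 genes in all. The rule uses the symbols alone and no expression value. RNA-Seq had been performed on total RNA from crypts freshly isolated by EDTA chelation, with 4 SI and 4 COL libraries. The donors of both groups were the same untreated wild-type C57BL/6N mice, females for libraries 1 and 4 and males for libraries 2 and 3. Libraries of the same number came from 1 animal, and the labels give the number 5 to the donor of SI4 and COL4. The age of the mice is not given in the sources used here. The authors' crypt isolation protocol for organoids names the proximal SI, and their description of the sequenced crypts names no segment of SI or COL. All values are read counts per gene, so that fewer cells of a type and less RNA per cell cannot be told apart.

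Hox proteins are transcription factors that bind DNA through the homeodomain, a fold of 3 helices that the homeobox encodes. Within a cluster the genes are numbered by paralog group, with group 1 at the 3′ end and group 13 at the 5′ end, and in the embryo the 3′ genes are used first and furthest towards the head, the 5′ genes later and nearer to the tail. Genes of the same number in different clusters descend from 1 ancestral gene and are called paralogs. In the developing gut this order marks position along the tube, with the group 13 genes in the hindgut, and Hox genes are expressed in gut mesenchyme as well as in epithelium.

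Total counts per library ranged from 15969428 in COL2 to 32908060 in COL4. Transcripts of the mitochondrial genome took 22.7% to 50.8% of the counts in SI2, SI3, COL1 and COL2, and 4.83% to 7.35% in SI1, SI4, COL3 and COL4. More genes had a count in SI2 (25618) and COL3 (25842) than in the other libraries (17982 to 22029). The labelled tissues matched their markers: all 8 SI markers were higher in SI, and 5 of 6 COL markers were higher in COL. Markers of the proximal SI (4 of 4 tested, such as Gata4 and Lct) were higher in SI, whereas the ileal genes Fabp6 and Slc10a2 had at most 33 counts in any SI library and were higher in COL. The third marker of the distal SI, Osr2, had 366 to 2374 counts in SI and did not pass the threshold. Levels are given below as CPM, counts relative to library size scaled by the trimmed mean of M-values (TMM), and are divided by the exon length in kilobases wherever genes are compared with each other.

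Hox transcripts were abundant in COL crypts and close to absent in SI crypts. The 39 genes together had 60, 72, 69 and 30 counts in SI1 to SI4. In COL1 to COL4 they had 7058, 4894, 8853 and 10940 counts. Every COL library lay far above every SI library, with a summed level of 207.1 to 304.2 CPM in COL against 1.37 to 4.35 CPM in SI. The genes of the Hoxa and Hoxb clusters held nearly all of these counts, with 11077 and 20217 counts over the 4 COL libraries, against 421 for the Hoxd and 30 for the Hoxc cluster. No member had a count in all 4 SI libraries, and 16 had no count in any of them. In COL, 21 members had a count in all 4 libraries. Hoxc5 was the 1 member without a count in any library.

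**Figure D1:**
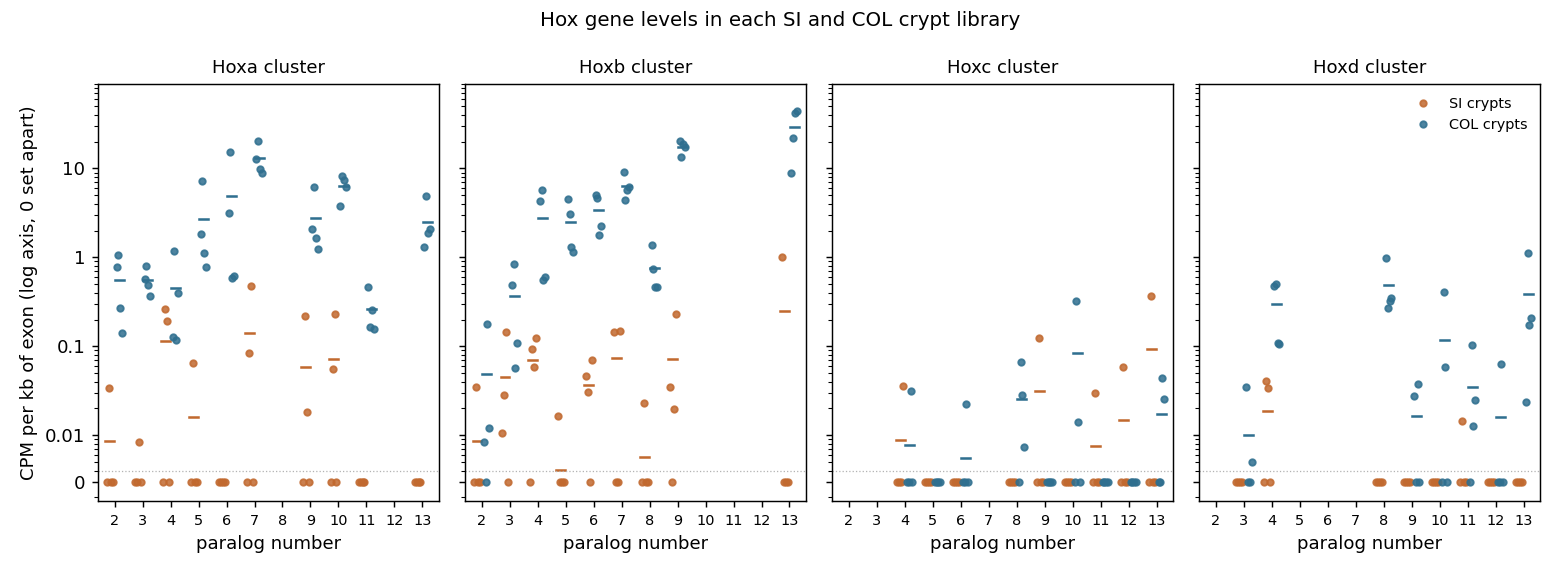
Level of the Hox genes of paralog groups 2 to 13 in CPM per kilobase of exon (log axis, with 0 set apart under the dotted line) against paralog number, 1 panel per cluster. Each point is a library (4 SI, 4 COL), short bars are group means and are drawn only above the dotted line. COL points stand above SI points over most of the Hoxa and Hoxb clusters, and the Hoxc cluster is near 0 in both tissues.

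Of the 39 members, 17 passed the filter on low counts and were tested, and 16 of these were called higher in COL and 0 in SI (edgeR quasi-likelihood test, adjusted p from 2.43e-05 to 0.0202). Over all 14491 genes tested, 12.9% were called higher in COL and 15.5% higher in SI. Scaling by library size alone gave 4788 genes higher in COL and 1115 higher in SI in place of 1863 and 2253, and 17 members higher in COL and 0 in SI. No member reached the filter through its SI counts, so those tested were selected for being high in COL, and their number and median are given as a description only. Their median difference was 6.82 on the log2 scale (COL minus SI), or 6.51 with the members lacking SI counts set at their lower bound, and that of all genes tested was 0.09. In 19 of the 39 members, every COL library was above every SI library, 16 of them among the 17 tested. The share of all genes tested with that separation was 15.7%. The tested member not called was Hoxb3 (adjusted p = 0.0809). In the libraries of high mitochondrial share alone, 16 members were called higher in COL, and in those of low share 18 were.

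The Hoxb cluster (chromosome 11, 96194316 to 96368256, plus strand, GRCm38) held the strongest signals, and 7 of its 10 members were called. Hoxb13, the most 5′ gene of the cluster and known for its part in prostate and tail development, had 670, 787, 3493 and 4719 counts in COL1 to COL4. In SI it had 49 counts in SI1 and 0 in SI2, SI3 and SI4. The COL libraries differed 5.03-fold among themselves in CPM and still all exceeded SI1, which stood apart from the other SI libraries. The difference was 6.82 ± 1.26 (SE, log2, COL minus SI, n = 4 per tissue, adjusted p = 0.00193), and without SI1 it was at least 1380-fold, measured against a floor of 3 counts over the remaining SI libraries. Hoxb9, which patterns the thoracic skeleton together with its paralogs, was the steadiest of the strongly expressed members across COL. It had 1807, 564, 1802 and 2123 counts in COL1 to COL4, or 45.2 ± 7.60 CPM (SD, n = 4). Its SI counts were 2, 0, 1 and 13. These groups were separated by 7.86 ± 0.72 on the log2 scale (adjusted p = 2.43e-05), the smallest adjusted p of all members, and the fitted difference was 9.68 without SI4. Fitted values with a library left out carry the default prior count of edgeR, which lowers differences where SI has few counts, so that Hoxb9 is at 7.83 with all libraries on that scale.

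The genes 3′ of Hoxb9 had fewer counts, and Hoxb8, Hoxb6, Hoxb5 and Hoxb4 were higher in CPM in COL1 and COL2 than in COL3 and COL4. Hoxb8 had 123, 31, 46 and 58 counts in COL1 to COL4 and a single count in SI, a ratio of 153 with a 95% exact counting interval of 27.2 to 6060. Hoxb7 had 482, 111, 331 and 452 COL counts and 5, 0, 0 and 5 in SI. Hoxb6 had 341, 147, 130 and 209 COL counts against 2, 1, 0 and 3. The last 2 genes differed between the tissues by 6.35 ± 0.78 and 6.51 ± 0.75 (log2), with no overlap of the groups. Hoxb5, a regulator of enteric neural crest cells in the embryo, had 432, 139, 136 and 154 counts in COL and 1 count in SI1 alone, a ratio of 510 (95% exact counting interval 91.3 to 20200). Leaving out SI1 left no SI count of Hoxb5, and the ratio was then at least 123. Leaving out SI2 did the same for Hoxb8, and its ratio was at least 40.4. Hoxb4, known for its role in haematopoietic stem cells, had 376, 237, 54 and 73 counts in COL and 0, 4, 3 and 7 in SI. It was 5.34 ± 1.05 higher in COL (log2, adjusted p = 0.0028), but was not called among the libraries of low mitochondrial share (adjusted p = 0.0906).

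Hoxb3, Hoxb2 and Hoxb1, at the 3′ end, had the lowest counts of the cluster. Hoxb3 had 71, 57, 9 and 22 counts in COL and 1, 2, 12 and 0 in SI. The 2 groups overlapped, since SI3 (0.608 CPM) was above COL3 (0.241 CPM) and COL4 (0.461 CPM). Its difference of 3.02 ± 1.20 did not pass the threshold, although it did without SI3 (4.76, adjusted p = 0.0280). It also did with DESeq2 (adjusted p = 0.0202) and with scaling by library size (adjusted p = 0.0284). Without the filter the adjusted p was 0.0175, in a fit that gave far lower adjusted p for other members, such as Hoxb9, on the same counts. Antisense exons of Hoxb3os cover 52.9% of the Hoxb3 exons, and without strand information reads of the 2 genes cannot be told apart. Hoxb2 had at most 2 counts in any library but COL3, which had 23, a ratio of 7.7 (95% exact counting interval 1.93 to 67.0). Hoxb1, a hindbrain gene, had 5 counts in COL3 and none elsewhere.

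In the Hoxa cluster (chromosome 6, 52155590 to 52260880, minus strand), 7 of 11 members were called, and these reached from Hoxa3 to Hoxa13. Hoxa7 was the strongest, with 1252, 946, 1054 and 1232 counts in COL and 0, 4, 27 and 0 in SI. Hoxa10, required for uterine development, had 426, 437, 899 and 958 counts in COL and 0, 3, 15 and 0 in SI. For both genes the SI counts fell in SI2 and SI3, the libraries of the male mice, which are also the SI libraries of high mitochondrial share. The differences were 6.56 ± 0.99 for Hoxa7 (adjusted p = 0.000537) and 6.51 ± 0.91 for Hoxa10 (adjusted p = 0.00031), and they were 8.97 and 8.53 without SI3. Hoxa9, best known from blood stem cells and leukaemia, had 394, 556, 348 and 333 counts in COL against 0, 20, 2 and 0 in SI. Hoxa9 was 5.69 ± 1.13 higher in COL (adjusted p = 0.00309). That difference was 8.73 without SI2 and 4.96 without COL2.

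Hoxa13, the posterior gene of limb and hindgut, had 109, 195, 172 and 244 counts in COL1 to COL4 and none in SI, so that COL was at least 142-fold higher. Hoxa6 likewise had no SI count. Its COL counts were 93, 213, 19 and 26, at least 69.3-fold above the SI floor, or 30.9-fold without COL2. Hoxa5, needed for lung development, had 116, 217, 79 and 69 counts in COL and 2 counts in SI2. Hoxa3, which acts in thymus and parathyroid development, had 116, 78, 109 and 106 counts in COL and 1 count in SI3. The ratios were 143 for Hoxa5 (95% exact counting interval 39.2 to 1180) and 242 for Hoxa3 (43.3 to 9600). Both SI signals thus came from a single library, and without it the ratios were at least 75.4 and 60.9. Without COL2 the fitted difference of Hoxa5 was 6.28 against 7.38 with all libraries, both with the prior count. Between Hoxa3 and Hoxa5 lies Hoxa4, which was not tested, with 7, 30, 7 and 30 counts in COL and 0, 7, 6 and 0 in SI. Antisense transcripts cover 20.4% of the Hoxa7 exons and 25.4% of those of Hoxa3.

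Hoxd genes were low in COL and almost silent in SI, and 2 of 9 members were called. Hoxd8 had 93, 12, 33 and 46 counts in COL and none in SI (at least 36.3-fold, or 24.0-fold without COL1). Hoxd4 had 48, 24, 12 and 15 counts in COL against 0, 2, 2 and 0 in SI. Hoxd4 passed the threshold by the narrowest margin of all called members (4.07 ± 1.14, adjusted p = 0.0202). Its call was lost without SI1, SI4 or COL1 (adjusted p from 0.0566 to 0.0724), and among the libraries of high mitochondrial share (adjusted p = 0.0907), and the difference was 4.56 without SI2. Exons of other genes on the same strand overlap 52.3% of the Hoxd4 exons. Reads there cannot be assigned to 1 gene, so that the Hoxd4 counts could be too low. Hoxd13, which shapes digits and the anogenital region, had 2, 45, 16 and 25 counts in COL and none in SI. It was not tested, and COL exceeded the SI floor at least 17.4-fold, or 9.64-fold without COL2.

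The Hoxc cluster (chromosome 15, 102921103 to 103036852) was the exception: no member was tested and no library had more than 15 counts of any member. Its 9 genes had 24 counts in all 4 SI libraries together and 30 in COL. Of the SI counts, 22 lay in SI2, and Hoxc13, a gene of hair and nail, held 15 of them. Among the COL counts, 13 each were in COL2 and COL3. SI2 and COL3 are the libraries with the most genes detected, and 17 of the 39 Hox members had a count in SI2 against 5 to 9 in the other SI libraries. The part of this in the low Hoxc counts was not tested.

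The 22 members that did not pass the filter had at most 47 counts in a library. Without the filter 38 members could be fitted, and 20 were called higher in COL, which added Hoxa2, Hoxa11, Hoxd13 and Hoxb3. The same edgeR quasi-likelihood test gave far lower adjusted p there for the same counts. For Hoxb9 it was 7.57e-41 against 2.43e-05 in the main fit, and for Hoxb13 4.79e-34 against 0.00193. The added calls are therefore not on the same footing as those of the main fit. In that fit 7.19% of 33110 genes were called higher in COL. Hoxa2, the selector gene of the second pharyngeal arch, had 47, 30, 18 and 12 counts in COL and 1 in SI, and Hoxa11, a limb and uterus gene, had 36, 6, 22 and 17 in COL and none in SI. Antisense exons of Hoxa11os cover 35.0% of the Hoxa11 exons. Hoxd1, Hoxd3, Hoxd9, Hoxd10, Hoxd11 and Hoxd12 had at most 12 counts in any COL library and together 1 in SI. At this depth no difference was detectable for these genes. For Hoxd3 the counts could also be too low, since exons of other genes on the same strand overlap 62.3% of its exons.

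Levels per kilobase in COL did not follow the paralog number evenly. Summed over clusters, they were highest for group 13 (32.5 CPM per kb), group 9 (20.4) and group 7 (19.4). Group 13 was first in COL2, COL3 and COL4, where it reached 28.2, 44.4 and 47.1. In COL2, however, group 7 (24.9) lay above group 9 (19.8), which was level with group 6 (19.8). In COL1 group 13 reached 10.2, below group 9 (22.7) and group 7 (21.9). Groups 10, 6, 5 and 4 came next, with 6.61, 8.31, 5.25 and 3.56 CPM per kb. Group 8, which lies between the strong groups 7 and 9, reached only 1.27, and groups 2, 3, 11 and 12 stayed under 1. In each of the leading groups 1 cluster gave most of the level: Hoxb13 29.6 of group 13, Hoxb9 17.6 of group 9 and Hoxa7 13 of group 7. Ordered by mean level per kb, the members ran Hoxb13, Hoxb9, Hoxa7, Hoxa10 (6.40), Hoxb7 (6.37), Hoxa6 (4.87), Hoxb6 (3.44), Hoxb4 (2.80), Hoxa9 (2.80), Hoxa5 (2.72), Hoxa13 (2.53) and Hoxb5 (2.53). Then came Hoxb8 (0.757), Hoxa2, Hoxa3, Hoxd8 and Hoxd4, among the genes with at least 10 counts in every COL library. The ranges of the 4 COL libraries of neighbours in this order overlapped in all cases but 1, Hoxa7 over Hoxa10. With the coding length in place of the exon length, the first 3 places stayed the same and Hoxa9 moved from rank 9 to rank 4. With the longest transcript Hoxa7 took rank 2 and Hoxb9 rank 3.

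Because group 13 held the strongest member beside 1 near 0, the homeoboxes of its members are printed, as read from GENCODE vM21 transcripts (GRCm38). They lie at chr6:52258928-52259107 (minus strand, Hoxa13), chr11:96196020-96196199 (Hoxb13), chr15:102927210-102927389 (Hoxc13) and chr2:74669930-74670109 (Hoxd13, all plus strand), each 180 bases long and in exon 2 of 2. Capitals mark the codons of residues 48 to 51, a conserved stretch of the third helix, which contacts DNA.
Hoxa13: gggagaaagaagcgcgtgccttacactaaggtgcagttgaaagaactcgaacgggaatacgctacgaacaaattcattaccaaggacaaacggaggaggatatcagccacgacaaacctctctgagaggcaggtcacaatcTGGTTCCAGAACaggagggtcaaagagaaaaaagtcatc
Hoxb13: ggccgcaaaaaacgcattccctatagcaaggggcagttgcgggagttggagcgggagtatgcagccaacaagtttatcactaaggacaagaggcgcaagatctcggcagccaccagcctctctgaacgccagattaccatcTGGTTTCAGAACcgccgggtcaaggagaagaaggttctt
Hoxc13: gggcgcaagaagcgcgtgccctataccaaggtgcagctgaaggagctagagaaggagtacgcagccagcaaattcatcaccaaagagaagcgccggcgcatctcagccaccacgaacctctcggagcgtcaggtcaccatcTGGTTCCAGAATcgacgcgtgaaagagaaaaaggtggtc
Hoxd13: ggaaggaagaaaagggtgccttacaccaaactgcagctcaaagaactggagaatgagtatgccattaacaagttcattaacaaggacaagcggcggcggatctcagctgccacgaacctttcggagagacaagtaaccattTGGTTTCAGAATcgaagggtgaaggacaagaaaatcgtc
These 4 homeoboxes had 67.2% to 77.2% identical bases, and the longest run that a pair shared was 14 bases, between Hoxa13 and Hoxc13. No 50-base stretch of the longest transcripts of the 4 genes occurred in a transcript of another gene. Their levels in COL were 29.6 (Hoxb13), 2.53 (Hoxa13), 0.383 (Hoxd13) and 0.0173 (Hoxc13) CPM per kb. Over all 39 members, pairs of the same paralog number shared a median of 80.6% of homeobox bases (42 pairs) and other pairs 60.6% (699 pairs). Of the 16 called members, Hoxa3, Hoxa7 and Hoxd4 shared over 20% of their 50-base stretches with other transcripts (26.3%, 27.1% and 42.2%), in each case with overlapping transcripts of their own cluster, and the remaining 13 shared at most 1.86%.

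The 4 COL libraries did not show the same Hox pattern. Across the 17 members with at least 10 counts in each COL library, log2 levels of COL3 and COL4 were nearly the same (r = 0.992 across genes, which are not independent replicates). For the other pairs of COL libraries r was 0.772 to 0.86. Hoxb13 took 39.5% (95% Wilson interval 38.4 to 40.5) of all Hox counts in COL3 and 43.1% (42.2 to 44.1) in COL4. In COL1 it took 9.49% (8.83 to 10.2) and in COL2 16.1% (15.1 to 17.1). These intervals cover counting error only. Hoxb13 was thus 2.80-fold higher in CPM in COL3 and COL4 than in COL1 and COL2, with no overlap. Against COL1 alone it was 4.89-fold higher and against COL2 alone 1.96-fold higher. The reverse held for Hoxa6 (15.2-fold), Hoxb4 (8.66-fold), Hoxa5 (4.75-fold), Hoxd4 (4.57-fold), Hoxa2 (4.43-fold) and Hoxb5 (3.11-fold), each higher in both COL1 and COL2 than in COL3 and COL4. COL2 carried much of this for Hoxa6 and Hoxa5, whose folds with COL1 alone were 5.18 and 1.91. Hoxb9 (0.95-fold) and Hoxb7 (1.15-fold) overlapped between the pairs. Genes of groups 1 to 4 made up 9.63% and 9.32% of the Hox counts in COL1 and COL2 against 2.80% and 2.43% in COL3 and COL4, and genes of groups 9 to 13 made up 48.8% and 53.5% against 76.5% and 77.0%. COL1 and COL2 are also the COL libraries of high mitochondrial share (26.9% and 50.8% against 6.94% and 4.83%). The summed level of the 6 COL markers split likewise, with 7686 and 6251 CPM in COL1 and COL2 against 34210 and 18180 in COL3 and COL4. The part of the mitochondrial share, or of whatever sets the COL marker level, in the pattern was not tested. Each pair holds a male and a female mouse.

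**Figure D2:**
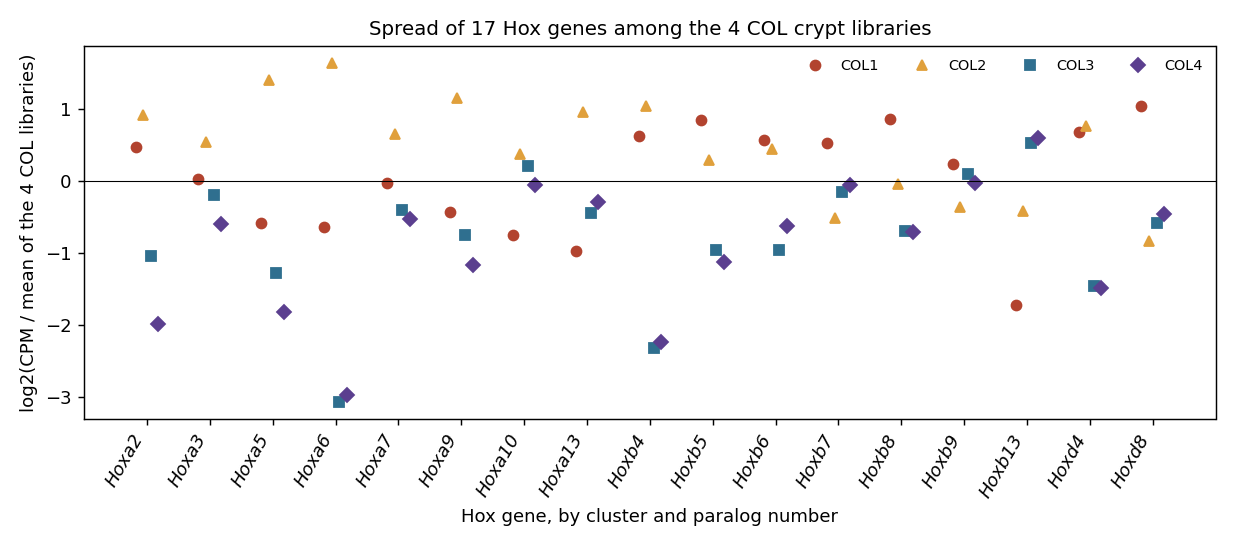
Level of 17 Hox genes in each COL library relative to the mean of the 4 COL libraries (log2 of the CPM ratio), by cluster and paralog number. COL3 and COL4 lie close together for nearly every gene, below COL1 and COL2 for Hoxa6 and Hoxb4 and above them for Hoxb13.

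The few SI counts were also unevenly spread. Hoxa genes had 37 counts in SI2 and 51 in SI3 and none in SI1 and SI4. Hoxb genes had 60 counts in SI1, 28 in SI4, 10 in SI2 and 16 in SI3. SI1 and SI4 come from the female mice and SI2 and SI3 from the male mice, and the high mitochondrial share of SI2 and SI3 cannot be told apart from the sex in SI. In SI1, Hoxb13 had 49 counts beside 2 of Hoxb9, whereas in the COL libraries Hoxb13 ranged from 670 beside 1807 of Hoxb9 (COL1) to 4719 beside 2123 (COL4). The colon gene Aqp8 had 576 counts in SI1 against 28 to 65 in the other SI libraries, while the colon gene Car1 was highest in SI4 (8354 counts). Whether colon RNA contributed to SI1 was not tested.

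A test of whether the SI against COL difference depended on the sex of the mouse called no member and 0.0% of all genes (edgeR interaction term, 2 mice per sex). At an unadjusted p under 0.05 there were 761 genes and 6 members, and the lowest adjusted p of a member was 0.909. Without the filter on low counts the same test called 2 members, Hoxb13 and Hoxa7, and 0.236% of all genes. Both calls rest largely on 1 SI library. Hoxb13 had 49 SI counts in SI1 and 0 in SI4, the other female library. Hoxa7 had 27 counts in SI3 and 4 in SI2, the other male library. No dependence on sex is read from these 2 calls. With scaling by library size the test called no member.

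The clusters also hold genes other than the Hox members, mostly non-coding, and 9 of the 11 that were tested were higher in COL and 0 in SI. None had more than 16 counts in an SI library, so they too had passed the filter through COL and their number is a description, beside 12.9% of all genes tested. Of 52 such genes annotated inside or within 10 kb of the clusters, 28 had a count. Gm53, a non-coding RNA between Hoxb13 and Hoxb9, was the most abundant, with 957, 664, 1440 and 1464 counts in COL and 4, 2, 0 and 15 in SI (7.08 ± 0.69, log2, adjusted p = 3.37e-05). Hottip, a non-coding RNA at the 5′ end of the Hoxa cluster that is known to act on nearby Hoxa genes, had 85, 101, 278 and 350 counts in COL and 0, 5, 0 and 0 in SI (6.48 ± 1.06, adjusted p = 0.000909). In CPM, Hottip was higher in COL3 and COL4 (7.44 and 7.33) than in COL1 (2.49), while COL2 (6.28) lay only a little below them. Hoxa11os had 260, 581, 319 and 163 COL counts and 3 in SI (ratio 261, 95% exact counting interval 89.2 to 1270). Hoxaas2, Hoxaas3, 9530018H14Rik, Gm27605, Hoxb5os and Hoxd3os1 were the other 6 called. The Hoxc cluster had no count in any of its 7 other genes.

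The clusters encode the miRNAs miR-196 and miR-10, which are known to act on Hox transcripts. Their mature sequences are shown because reads at 3 of the hairpins were seen in COL alone and because their seeds match members described above. They are taken from RefSeq (GRCm38.p6), with the seed, bases 2 to 8, in capitals.
mmu-miR-196a-5p: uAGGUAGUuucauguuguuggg
mmu-miR-196b-5p: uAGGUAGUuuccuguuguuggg
mmu-miR-10a-5p: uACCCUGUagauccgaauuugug
mmu-miR-10b-5p: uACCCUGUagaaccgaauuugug
miR-196a and miR-196b share 1 seed, and miR-10a and miR-10b another. The Mir196a-1 hairpin, between Hoxb13 and Hoxb9 (mature sequence at chr11:96265187-96265208, plus strand), had 28, 14, 4 and 5 counts in COL and none in SI. Mir10a had 5 counts in COL1, Mir10b 3 in COL1 and 1 in COL2, and the hairpins of Mir196a-2 and Mir196b none. Such counts come from long RNA fragments at the hairpin and do not measure the mature miRNA. The Mir196b hairpin overlaps exons of Hoxa9 on the same strand in GENCODE vM21. Reads there cannot be assigned to 1 of the 2 genes, so its lack of counts does not show absence. The 7-base match to the miR-196 seed (ACTACCT) was found in the 3′ untranslated region (UTR) of 8 of 39 members and of 6.06% of 21037 genes with an annotated 3′ UTR. That to the miR-10 seed (ACAGGGT) was found in 4 of 39 members and in 12.3% of genes. Hoxa7 held 4 matches to miR-196, of which the one with the most bases complementary to miR-196a is printed with those of Hoxa9 and Hoxb7, seed match in capitals.
Hoxa7: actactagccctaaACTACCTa
Hoxa9: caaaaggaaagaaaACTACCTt
Hoxb7: ctgtaaaaaaatatACTACCTa
These sites lie at chr6:52215210-52215231 (Hoxa7, minus strand), chr6:52223900-52223921 (Hoxa9, minus strand) and chr11:96289784-96289805 (Hoxb7, plus strand), and each has 14 of 22 bases complementary to miR-196a. Of the 8 members with a miR-196 match, Hoxa5, Hoxa7, Hoxa9, Hoxb6 and Hoxb7 were called higher in COL, and Hoxa4, Hoxb1 and Hoxc8 were not tested, with 74, 5 and 7 counts in COL. A match is a description of these letters and not a measured site.

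Beyond the cluster borders most genes did not pass the threshold, as over all genes tested (12.9% higher in COL and 15.5% higher in SI). Of 43 tested genes outside the clusters but within 500 kb of them, 7 were higher in COL and 3 in SI, with a median difference of 0.16 (log2, COL minus SI). Ttll6, a tubulin glutamylase gene 28.9 kb beyond the 5′ end of the Hoxb cluster, was the nearest of those called and had the largest difference towards COL. It had 838, 1430, 865 and 986 counts in COL and 35, 18, 1 and 5 in SI (5.74 ± 0.86, adjusted p = 0.000509). Further out lies Gip, the incretin hormone gene of the upper gut, with 4948 counts in SI and 9 in COL (adjusted p = 5.43e-06). The nearest tested protein-coding genes at the other borders, Skap2 and Hibadh beside the Hoxa cluster, Skap1 beyond the 3′ end of the Hoxb cluster and Lnpk and Mtx2 beside the Hoxd cluster, did not pass the threshold. Of the 22 listed neighbours, 18 were tested, with 2 higher in COL and 1 in SI. Evx1, a homeobox gene 52.6 kb beyond Hoxa13, was not tested and had 16, 7, 27 and 8 counts in COL and none in SI.

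**Figure D3:**
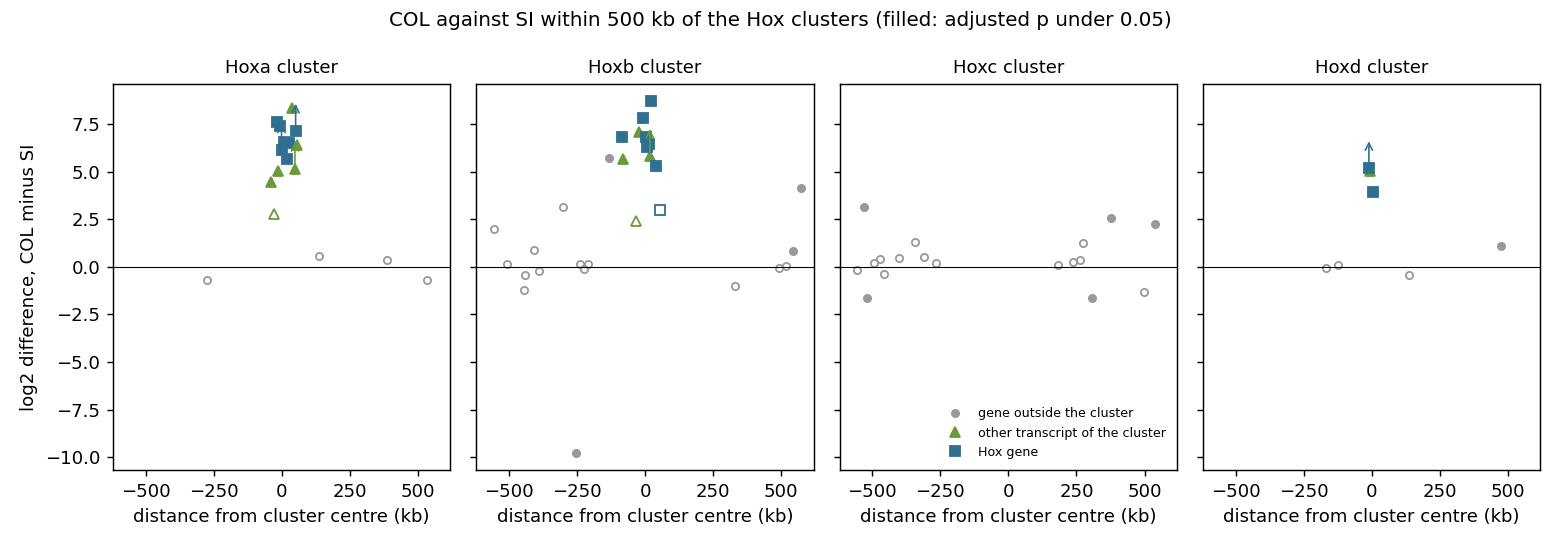
Difference between COL and SI (log2, COL minus SI) of tested genes against their distance from the centre of each cluster in kilobases. Squares are Hox genes, triangles other transcripts of the cluster and circles genes outside it, filled where the adjusted p is under 0.05, and arrows mark lower bounds of genes without a count in SI. Hox genes and other cluster transcripts stand between 2.38 (Gm11539) and 8.69 (Hoxb5, with the prior count of edgeR), while the genes outside have a median of 0.16.

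Hox proteins bind DNA together with TALE homeodomain cofactors (the Pbx, Meis and Pknox families). Of 7 of these tested, 2 were higher in SI, Pbx4 (2.30 ± 0.73, log2) and Pknox1 (0.88 ± 0.23), and neither was called with scaling by library size. The ParaHox genes, a sister group of the Hox genes, include the intestinal regulators Cdx1 and Cdx2, and 2 of 6 were tested. Cdx1 was higher in COL (101 ± 31.9 against 23.8 ± 1.43 CPM, 2.09 ± 0.28, adjusted p = 0.000242) with no overlap. Cdx2, with 69.0 ± 30.2 against 37.6 ± 7.96 CPM, did not pass the threshold (adjusted p = 0.0918), but was called higher in COL with scaling by library size.

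Promoter sequences, from 250 bases before to 50 after the start, were held by the RefSeq table (GRCm38.p6) for 22 members (24 promoters). The Cdx-type motif TTTATG, searched on both strands, was found in 5 of the 24 (20.8%) and in 11.9% of all 32851 promoters. The motif CAATAAA, bound by posterior Hox proteins, searched likewise, was found in 2 of the 24 (8.33%) and in 4.6% of all, and no match overlapped a TTTATG in the promoters printed. The promoters of Hoxa7 and Hoxb8, which hold 2 TTTATG motifs each, and of Hoxa13, which holds neither motif and 45 CpG against a median of 7 over all promoters, are shown with both motifs in capitals.
Hoxa7: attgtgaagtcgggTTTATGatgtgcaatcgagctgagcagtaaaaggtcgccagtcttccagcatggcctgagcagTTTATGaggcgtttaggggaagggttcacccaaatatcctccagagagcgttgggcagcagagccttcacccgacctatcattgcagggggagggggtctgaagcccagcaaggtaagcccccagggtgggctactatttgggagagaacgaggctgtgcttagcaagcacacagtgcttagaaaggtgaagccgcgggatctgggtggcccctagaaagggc
Hoxb8: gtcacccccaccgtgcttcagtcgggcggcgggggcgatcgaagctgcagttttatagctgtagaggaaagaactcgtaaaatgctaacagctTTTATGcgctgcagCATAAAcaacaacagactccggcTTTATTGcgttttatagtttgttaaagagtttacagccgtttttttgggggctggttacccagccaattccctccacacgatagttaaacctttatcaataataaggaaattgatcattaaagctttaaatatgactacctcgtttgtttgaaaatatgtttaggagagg
Hoxa13: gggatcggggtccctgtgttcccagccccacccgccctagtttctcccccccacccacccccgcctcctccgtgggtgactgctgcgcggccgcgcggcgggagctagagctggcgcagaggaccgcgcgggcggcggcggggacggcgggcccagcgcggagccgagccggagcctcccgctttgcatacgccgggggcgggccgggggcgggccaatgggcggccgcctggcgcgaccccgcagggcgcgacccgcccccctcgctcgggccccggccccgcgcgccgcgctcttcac
They lie at chr6:52218524-52218823 (minus strand), chr11:96281655-96281954 (plus strand) and chr6:52260831-52261130 (minus strand). All 3 genes were higher in COL, at 13, 0.757 and 2.53 CPM per kb. The remaining promoters with TTTATG were those of Hoxd3, Hoxd4 (which also holds 2) and 1 of 2 of Hoxd11, and of these genes Hoxd4 was called. The Hoxb8 promoter also holds 1 CAATAAA, on the reverse strand, and that of Hoxd4 holds another. The median share of G and C was 57.6% in the Hox promoters and 52.7% in all.

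Calls among chromatin regulators of the Hox clusters were few, and over all genes 12.9% were higher in COL and 15.5% higher in SI. Of 28 Polycomb genes tested, whose products keep Hox genes silent, 2 were higher in COL (Phf19, 1.99 ± 0.60, and Cbx7, 1.52 ± 0.51) and 2 higher in SI (Pcgf5, 1.48 ± 0.31, and Rybp, 1.47 ± 0.31). Of 14 Trithorax genes, whose products keep Hox genes active, Kdm6b (1.35 ± 0.27) and Ash2l (1.14 ± 0.25) were higher in SI. Retinoic acid switches on Hox genes in the embryo, and of 10 tested genes of its pathway the receptor gene Rarg was higher in COL (2.85 ± 0.67) and Rara (1.30 ± 0.31) and Rxra (1.18 ± 0.24) in SI. With scaling by library size all 6 of these genes that were higher in SI lost their call, and 8 Polycomb, 5 Trithorax and 2 retinoic acid genes were called higher in COL. Median differences, SI minus COL, were -0.16 for Polycomb, -0.03 for Trithorax and 0.36 for retinoic acid genes, against -0.09 over all genes tested. Among 16 tested regional transcription factors of the gut epithelium, 7 were higher in SI and 5 in COL. Examples were Foxd2 (1 count in SI, 1244 in COL), Gata4 (4042 against 13) and Sox21 (0 against 108).

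Hox genes are expressed in the wall around the crypts too, so markers of other cell types were read beside them. The 18 mesenchyme markers summed to 5.72 to 27.3 CPM in SI and 12.1 to 20.2 CPM in COL, and 0 of 8 tested were called. The overlap rests on SI2 (27.3 CPM), since the other SI libraries, at 5.72 to 8.87 CPM, lay below every COL library. Twist1 was at 0 in all libraries, and Lum, Foxf1 and Foxl1 were at 0 in SI. Neuron and glia markers summed to 1.09 to 4.77 CPM in SI and 1.93 to 5.35 in COL, and Sox10 was at 0 in COL. Endothelial markers ranged from 5.13 to 10.5 CPM in SI and 3.49 to 9.51 in COL, with Pecam1 higher in COL, and immune markers from 50.2 to 116 CPM in SI and 16.7 to 52.0 in COL, with 2 of 8 higher in SI. The Hox sums of 207.1 to 304.2 CPM in COL were above those of all 4 lists in COL. Epithelial markers summed to 13200 to 26400 CPM over all libraries, with 4 of 13 higher in SI and 2 in COL. The part of other cell types in the Hox differences was not tested beyond these sums.

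**Figure D4:**
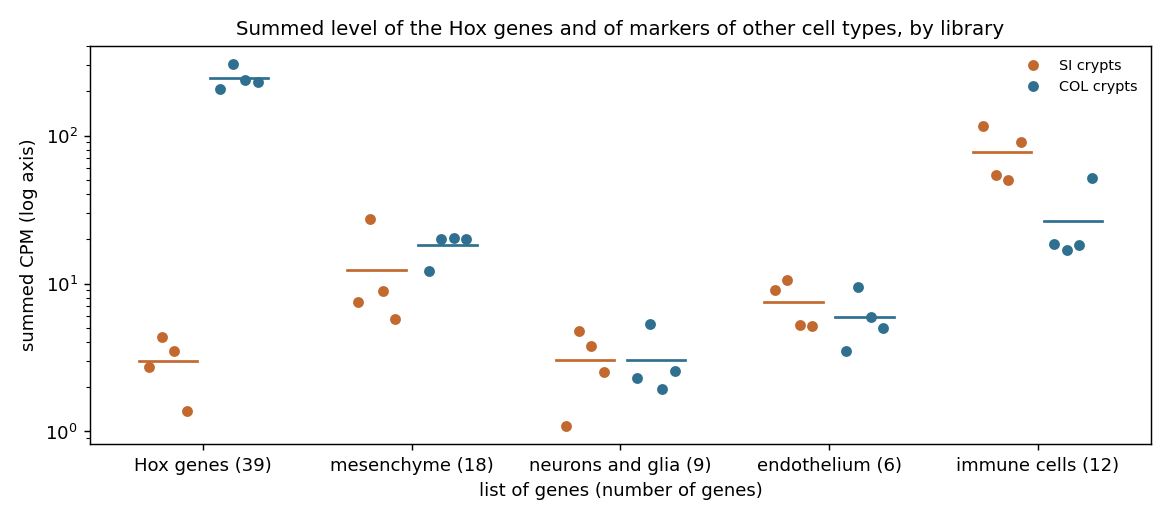
Summed CPM (log axis) of the 39 Hox genes and of marker lists of 4 other cell types in each library, with group means as bars. The Hox sums separate COL (207.1 to 304.2) from SI (1.37 to 4.35). SI and COL overlap for neurons and glia, for endothelium and, through SI2 alone, for mesenchyme. For immune cells they overlap only in that COL4 (52.0) lies above SI3 (50.2).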

How the data were processed

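Crypt RNA of SI and COL from 4 wild-type mice was analysed. The authors had used Trimmomatic 0.36 for trimming of the paired-end reads and STAR 2.5.2b for alignment (mm10) and gene counting, and the deposited values are raw counts per Ensembl gene, with replicates not pooled. The build list of the labels also names mm9. The annotation release and strand setting are not given in the sources used here. Names and lengths came from GENCODE vM21, which held 45143 of 45706 genes.

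Genes passing filterByExpr (14491) were tested with the quasi-likelihood test of edgeR 4.0.16 (R 4.3.3) after TMM normalisation, with tissue as the term and Benjamini-Hochberg adjustment over all genes tested (threshold 0.05). The procedure was tested on simulated data. CPM uses TMM-scaled sums of the genes kept, between 15969428 and 32908060 counts per library before filtering. Where SI had no count, COL was set against a floor of 3 counts over the 4 SI libraries (0.0374 CPM) and called "at least" that fold higher. With 1 to 3 SI counts the ratio has an exact 95% counting interval. Otherwise differences are fitted log2 values ± SE without a prior count. The SE was derived from the test, as the absolute difference divided by the square root of its quasi-likelihood F statistic. It is not a separately estimated standard error. Intervals and floors cover counting error only.

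The rule for members uses symbols alone, but the members and gene lists were chosen with earlier results of these data known. Members were described one by one, except for a few items that are not reported here, and of the other lists up to 4 genes with the largest change among those called were named, with other transcripts, neighbours, chromatin and marker genes named beyond that rule after their values were seen. Libraries of the same number share a mouse according to the labels. Their deviations from the tissue means correlated at r = -0.24, 0.393, -0.079 and 0.327, with a mean of 0.1 against -0.03 for different mice. The alternatives were scaling by library size, DESeq2 1.42.0 size factors and Wald test, limma-voom (limma 3.58.1), the replicate block, other filters, leaving out each library, and libraries of high or low mitochondrial share (split at 10%).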

Additional observations from a re-analysis of the deposited data

Results flagged for a closer look

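In 6 of 25 groups of 4 libraries, 1 library lay so far from the others that its gap exceeded the critical value of Dixon's test at the 95% level. Where the other libraries are at or near 0 counts, any library with counts exceeds that value, so the number flagged is a description only. In SI these were Hoxb13 in SI1 at 2.22 CPM (49 counts, against 0 in the other SI libraries), Hoxa9 in SI2 at 1.21 CPM (20 counts, others 0 to 0.101) and Hoxb9 in SI4 at 0.595 CPM (13 counts, others 0 to 0.0906). In COL they were Hoxa5 in COL2 at 13.5 CPM (217 counts, others 1.45 to 3.40), Hoxa9 in COL2 at 34.6 CPM (556 counts, others 6.97 to 11.6) and Hoxd8 in COL1 at 2.73 CPM (93 counts, others 0.746 to 0.963). COL2 had the highest mitochondrial share (50.8%) and the lowest total (15969428 counts). The part of these values in the separate levels was not tested.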

How the results depend on the processing

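Over 18 alternatives, members kept their direction throughout. Of their fitted values, 294 stayed on the same side of the threshold, 5 lost their call (Hoxd4 in 4 settings, Hoxb4 in 1), 4 gained it (Hoxb3), and 0 reversed. With the replicate block of the 4 mice, 16 members were higher in COL and 0 in SI, and the block changed no call of a member. The number higher in COL was 14 with a mean of at least 1 CPM, 20 without the filter, and 16 to 20 leaving out 1 library each, with 0 higher in SI. Leaving out 1 library gave 1442 to 2187 genes higher in COL and 1707 to 2393 higher in SI, and of the gene lists 10 to 13 and 15 to 17. Scaling by library size alone gave 4788 genes higher in COL and 1115 in SI, with a median of all genes of -0.82 (SI minus COL) in place of -0.09, and of the gene lists 30 and 6. Libraries of high mitochondrial share gave 883 and 1381, and of the gene lists 6 and 8, from fewer samples. The sex interaction called 2 members without the filter, and the cause was not tested. Among 33 other genes, 521 values kept their side of the threshold, 54 lost it, 13 gained it and 0 reversed. The calls of Cbx7 (lost in 9 settings), Pbx4 (8), Phf19 (5) and Hoxaas2 (5) were the least stable. Of 34 COL levels per kb, 18 moved by more than 1 SD with another length. Low SI counts limit every fold to a bound or a wide interval.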
